A study of Mus musculus with 10 samples.

Results

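The genes described here are 47 genes of DNA replication in mouse morulae, from the proteins that mark origins and load the replicative helicase to the polymerases, clamp, ligase and nucleotide-producing enzyme of the fork. They were taken by gene symbol, and each of the 47 was present in the expression table of every library, out of 24411 genes in each table. RNA was measured by sequencing in 10 libraries, each made from 10 pooled morulae. Mettl3-ASO libraries (5) came from embryos given an antisense oligonucleotide (ASO) against Mettl3, whose protein is the catalytic part of the methyltransferase placing N6-methyladenosine (m6A) on messenger RNA. ASO-Control libraries (5) came from embryos given a non-targeting ASO. Both groups share the rest of their history: oocytes of superovulated females were fertilized in vitro, zygotes were microinjected at 3 to 6 hpi (hours after insemination), and the embryos grew in KSOM, an embryo culture medium, until collection as morulae at 72 hpi. The strain is given as ICR, an outbred stock, for replicates 1 and 2 of each group, and the labels of replicates 3 to 5, which are tagged as batch 2, name none. Replicates 1 and 2 carry no batch tag and are called untagged below. The oligonucleotide acts on the whole embryo from the zygote on, both groups were injected, and uninjected or in vivo grown embryos were not analysed here. Nothing in the labels says that libraries came from separate fertilizations, so a p-value here speaks only of how these libraries vary, and that variation may be technical.

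DNA replication is prepared in G1, when the origin recognition complex (ORC), Cdc6 and Cdt1 place rings of MCM2-7 on DNA, a step called licensing that geminin blocks once S phase has begun. In S phase Cdc45 and the GINS complex join MCM2-7 to form the active CMG helicase, DNA polymerase alpha-primase lays down primers, and polymerases epsilon and delta extend the leading and lagging strands behind the sliding clamp PCNA. Cleavage-stage embryos divide without growing, and they draw on stores of replication proteins and transcripts from the oocyte.

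Levels are given as the deposited FPKM, which are fragments scaled to transcript length and library size, and can be compared between genes. Differences are log2 fold changes of Mettl3-ASO over ASO-Control with their standard error, from edgeR's quasi-likelihood test on the expected counts with batch as a term. A gene is said to have risen or fallen where its Benjamini-Hochberg adjusted p over all 9522 tested genes was under 0.05. A gene that did not pass is not thereby shown to be unchanged. Mettl3, the targeted gene, was read first as a check of the labels. It was listed at 0, 0, 0, 0.040 and 0.030 FPKM in Mettl3-ASO libraries 1 to 5, against 10.6, 12.7, 6.58, 7.77 and 6.62 FPKM in ASO-Control libraries 1 to 5. The 2 groups were fully apart, and an exact two-sided permutation test within batches gave p = 0.0167, the smallest that 120 relabellings allow. With libraries paired by number, Mettl3 was lower in 5 of 5 pairs, and the exact test over 32 sign flips gave p = 0.0625, the smallest it can give. The expected counts of a library added up to between 9905830 and 13530284 where no batch was tagged, and to between 21412857 and 32327283 in batch 2. The lowest expected count of any of the 47 genes in any library was 35, for Lig1 in a Mettl3-ASO library.

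All 47 genes passed the filter on low values, a mean of at least 1 FPKM over the 10 libraries. Of them, 7 rose, 16 fell and 24 did not pass the test in Mettl3-ASO morulae. That is 48.9% called, against 49.4% of all tested genes, so the share called is close to the background and is no result about replication genes. By direction, 14.9% of the 47 rose against 25.4% of all tested genes, and 34.0% fell against 24.0%. Their median log2 fold change was −0.09, against 0.01 over all tested genes. Falls of at least 2-fold among called genes took in Lig1, Orc3, Pole2, Orc5, Prim2, Rrm1 and Rfc4, which is 14.9% of the 47 against 8.67% of tested genes. No rise reached 2-fold, while 13.4% of tested genes had one. The libraries of the 2 groups did not overlap for 5 genes that were higher in Mettl3-ASO and 11 that were lower, which is 10.6% and 23.4% of the 47, against 15.0% and 10.6% of tested genes (25.6% in either direction). Summed over the 47 genes, the deposited TPM (transcript abundance scaled to one total in every library) ranged over 3717 to 3973 for Mettl3-ASO libraries and over 3895 to 4273 for ASO-Control libraries, ranges that overlap over all libraries. Within each batch they did not overlap, with 3899 and 3973 in untagged Mettl3-ASO libraries against 4003 and 4155 in untagged ASO-Control libraries, and 3717 to 3838 in batch 2 Mettl3-ASO libraries against 3895 to 4273 in batch 2 ASO-Control libraries. No test was run on these sums. In a bulk library, fewer embryos or cells expressing a gene and less RNA per cell cannot be told apart.

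**Figure D1:**
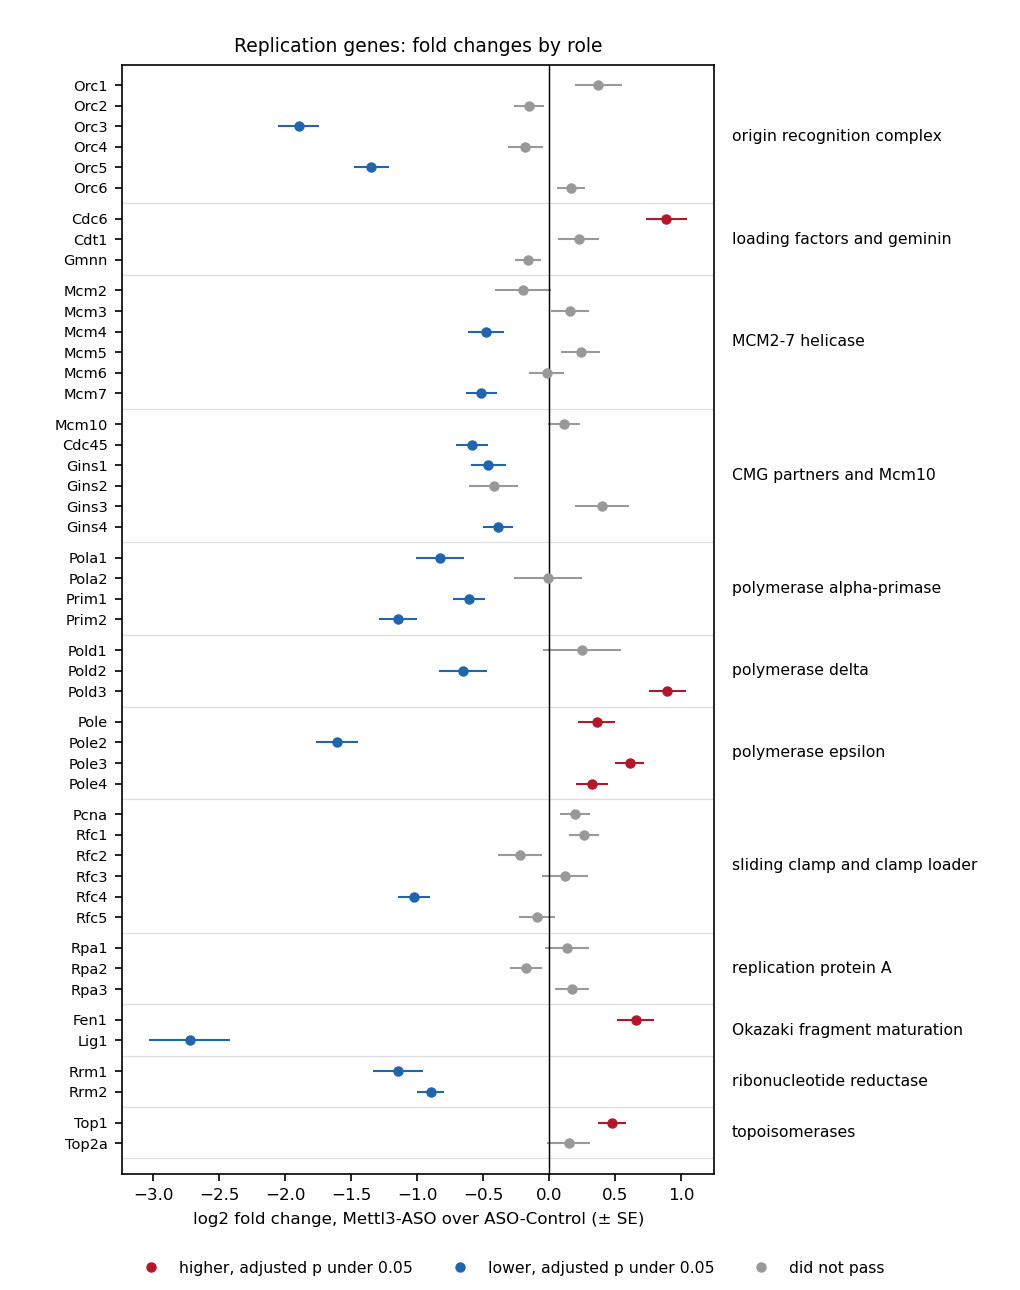
Log2 fold change (Mettl3-ASO over ASO-Control, ± SE) of each of the 47 replication genes, grouped by role down the page, with genes that rose in red, genes that fell in blue and genes that did not pass in grey. Lig1 lies farthest left at −2.72, and Pold3 farthest right at 0.90.

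**Figure D2:**
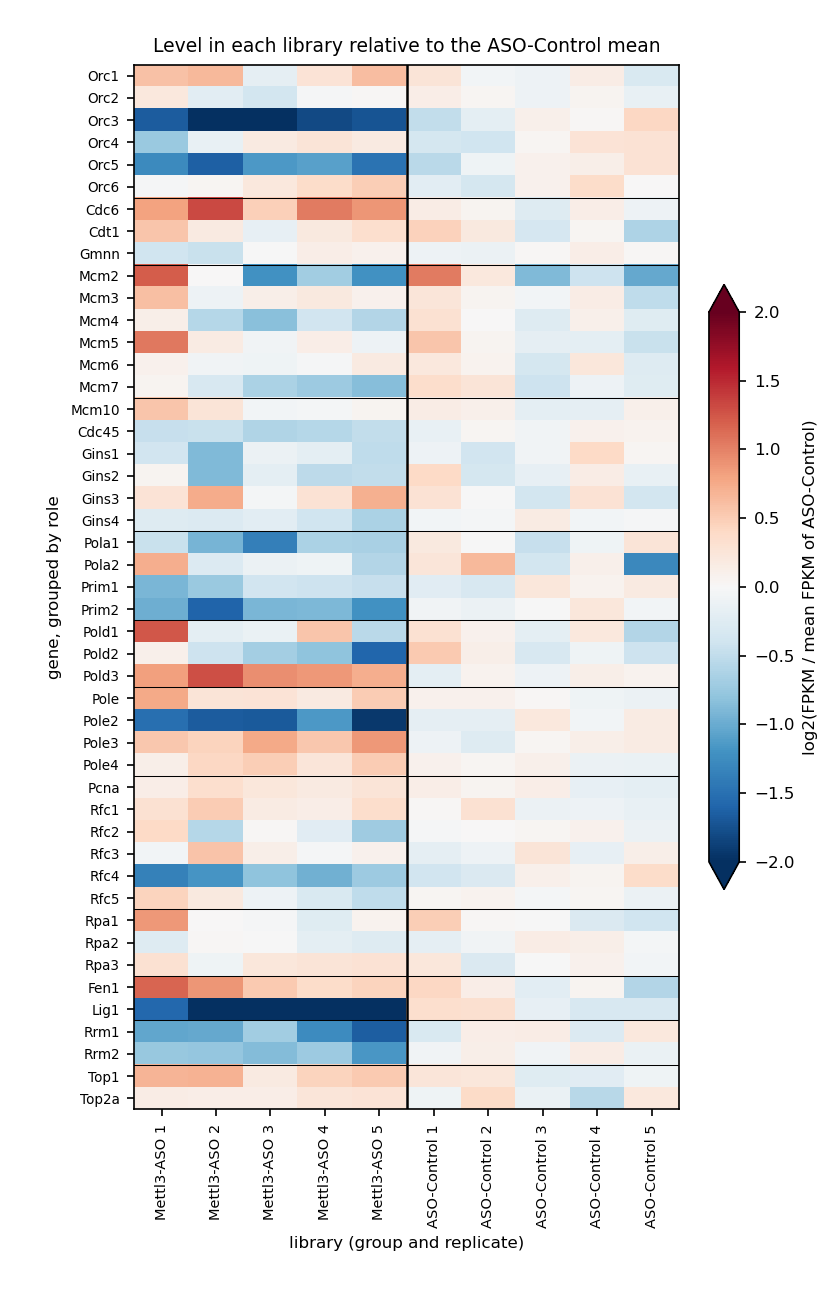
Each cell shows the log2 ratio of a library's FPKM to the mean FPKM of ASO-Control for that gene, with colours cut at −2 and 2; Mettl3-ASO libraries 1 to 5 are on the left and ASO-Control libraries 1 to 5 on the right. Orc3, Orc5, Pole2, Lig1, Rrm1 and Rrm2 are among the genes that are blue across all 5 Mettl3-ASO libraries, while Mcm2 varies with the replicate number in both groups.

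Replication genes are classical targets of E2F factors, which bind short GC-rich letters near the start of transcription of S-phase genes. Promoters of 250 bases before to 50 after the start were read from RefSeq on GRCm38.p6 for 39 of the 47 genes and searched on both strands for TTTCCCGC, TTTGGCGC, TTTCGCGC and TTTGCCGC, letters of the E2F type that can overlap one another. These genes had 48 promoters, and 16 of the 39 genes held at least 1 match in any of theirs (41.0%). Counted the same way by gene, 365 of 7279 tested genes with a promoter had a match (5.01%). So did 704 of all 27025 genes with a promoter (2.60%). Counted by promoter, 744 of all 32851 had a match (2.26%). Among the genes that rose 3 of 6 had a match, among those that fell 5 of 12, and among those that did not pass 8 of 21. A match is a description of the letters and not a bound site. The other 8 genes are Gmnn, Mcm4, Gins1, Gins2, Gins4, Prim2, Pole and Rfc2. The upstream 250 bases of 4 genes are printed 5′ to 3′ on the gene's own strand, with the matched letters in capitals, because they hold such letters beside different changes: Orc3 and Pola1 fell, Cdc6 rose, and Mcm6, with 3 matches of which 2 overlap in the first run of capitals, did not pass. In GRCm38.p6 they lie at chr4:34614943-34615192 (minus strand), chrX:93632156-93632405 (minus strand), chr11:98907901-98908150 (plus strand) and chr1:128359706-128359955 (minus strand). They end at the RefSeq start. The gene bounds, also read from RefSeq, reach past this start for some of these genes. Of the 250 bases, 250 lie inside the gene for Cdc6, 232 for Pola1, 21 for Orc3 and 0 for Mcm6. The first 30 bases after the RefSeq start were found in a GENCODE transcript of the gene for Orc3, Pola1 and Cdc6, and not for Mcm6.
Orc3: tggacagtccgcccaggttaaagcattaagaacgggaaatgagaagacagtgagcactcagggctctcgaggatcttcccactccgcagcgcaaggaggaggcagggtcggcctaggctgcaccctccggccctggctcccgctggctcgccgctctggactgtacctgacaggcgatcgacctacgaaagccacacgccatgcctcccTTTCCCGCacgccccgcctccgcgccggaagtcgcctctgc
Pola1: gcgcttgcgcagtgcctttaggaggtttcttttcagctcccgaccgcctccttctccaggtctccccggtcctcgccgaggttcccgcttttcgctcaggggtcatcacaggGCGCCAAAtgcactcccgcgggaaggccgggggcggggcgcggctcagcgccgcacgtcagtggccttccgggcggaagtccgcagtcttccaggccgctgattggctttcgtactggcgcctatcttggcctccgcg
Cdc6: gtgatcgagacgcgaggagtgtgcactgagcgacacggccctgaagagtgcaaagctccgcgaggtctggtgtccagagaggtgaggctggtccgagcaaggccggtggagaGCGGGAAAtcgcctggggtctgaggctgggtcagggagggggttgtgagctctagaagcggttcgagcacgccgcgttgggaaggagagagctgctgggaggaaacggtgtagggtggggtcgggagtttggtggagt
Mcm6: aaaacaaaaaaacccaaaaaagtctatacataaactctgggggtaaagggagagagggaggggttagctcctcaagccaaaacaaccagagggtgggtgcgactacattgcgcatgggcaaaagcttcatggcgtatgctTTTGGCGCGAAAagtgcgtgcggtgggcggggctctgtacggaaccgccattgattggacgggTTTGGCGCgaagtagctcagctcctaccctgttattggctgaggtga

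Within the origin recognition complex, the 6-subunit ATPase that marks replication origins, Orc3 and Orc5 fell while Orc1, Orc2, Orc4 and Orc6 did not pass. Orc3 (chromosome 4, 34566781 to 34614963, GRCm38), a core subunit, stood at 7.07, 5.04, 5.55, 6.45 and 6.75 FPKM in Mettl3-ASO libraries 1 to 5, against 15.9, 19.7, 24.03, 22.7 and 29.8 FPKM in ASO-Control libraries 1 to 5. Every Mettl3-ASO library lay below every ASO-Control library. The change was a log2 fold change of −1.90 ± 0.15 (edgeR adjusted p = 2.32e-06). Orc5 (chromosome 5, 22486480 to 22550338), an ATPase-fold subunit of the same ring, stood at 38.9, 30.6, 42.8, 44.4 and 34.1 FPKM in Mettl3-ASO libraries 1 to 5, against 65.1, 89, 100.3, 103 and 115 FPKM in ASO-Control libraries 1 to 5, again with no overlap. The fitted log2 fold change was −1.35 ± 0.13 (edgeR adjusted p = 8.75e-06). Both falls held within each batch, with a log2 fold change of −2.07 in batch 2 and −1.61 in the untagged libraries for Orc3, and of −1.43 in batch 2 and −1.21 in the untagged for Orc5, all past the threshold (adjusted p of 0.0244 for Orc3 and 0.0451 for Orc5 in the untagged libraries). Orc1, the largest ATPase subunit, averaged 10.1 ± 2.20 FPKM in Mettl3-ASO and 7.53 ± 1.14 FPKM in ASO-Control libraries (SD, n = 5 each), and its log2 fold change of 0.37 ± 0.18 (edgeR adjusted p = 0.0974) did not pass. Leaving out Mettl3-ASO replicate 3 took Orc1 past the threshold (adjusted p = 0.0314). Orc2, also a core subunit, averaged 24.6 ± 3.77 FPKM in Mettl3-ASO and 25.7 ± 2.12 FPKM in ASO-Control libraries. The nominal 95% interval of its log2 fold change was −0.37 to 0.07. Orc4 averaged 87.8 ± 22 FPKM in Mettl3-ASO and 88.2 ± 19.7 FPKM in ASO-Control libraries and Orc6, the most loosely held subunit, 202 ± 31 FPKM in Mettl3-ASO and 172 ± 34 FPKM in ASO-Control libraries. The intervals of Orc4 and Orc6 were −0.44 to 0.08 and −0.04 to 0.38. Orc4's deposited transcript length averaged 3121 bases in Mettl3-ASO and 3372 in ASO-Control libraries. FPKM is scaled to that length, whereas the fit used counts without a length term. The intervals of the 4 genes that did not pass did not meet those of Orc3 (−2.20 to −1.59) and Orc5 (−1.61 to −1.09). For Orc2, 29.8% of exon bases lie opposite those of Nif3l1, and no source used here says whether reads were counted by strand.

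Among the loading factors, Cdc6, the ATPase that joins ORC to recruit MCM2-7, rose. Cdc6 (chromosome 11, 98907709 to 98923942) stood at 32.04, 45.7, 25.4, 37.4 and 33.5 FPKM in Mettl3-ASO libraries 1 to 5, against 20.2, 18.96, 15.2, 20.04 and 17.03 FPKM in ASO-Control libraries 1 to 5. The lowest Mettl3-ASO library was above the highest ASO-Control library. This was a log2 fold change of 0.89 ± 0.16 (edgeR adjusted p = 0.000547). Cdt1, which carries MCM2-7 to the origin, averaged 32.1 ± 5.75 FPKM in Mettl3-ASO and 27.2 ± 7.79 FPKM in ASO-Control libraries, and its log2 fold change of 0.22 ± 0.16 (edgeR adjusted p = 0.256) did not pass. Geminin (Gmnn), the inhibitor of Cdt1, was the most abundant of the 47 transcripts in ASO-Control, with 557 ± 101 FPKM in Mettl3-ASO and 599.7 ± 44.1 FPKM in ASO-Control libraries, and did not pass either (adjusted p = 0.181). Called were thus 2 of the 6 ORC genes, both lower, and 1 of the 3 loading genes, higher. That is 33.3% of each role, against 49.4% of all tested genes. These shares do not exceed the background and are no result about licensing.

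The 6 genes of the MCM2-7 helicase gave 2 falls and no rise. Mcm4, one of the subunits with the catalytic core of the ring, stood at 40.01, 24.98, 20.7, 28.3 and 24.6 FPKM in Mettl3-ASO libraries 1 to 5, against 45.9, 37.03, 30.99, 39.9 and 31.4 FPKM in ASO-Control libraries 1 to 5. The groups overlapped through the untagged libraries and were apart within batch 2, and the log2 fold change was −0.48 ± 0.13 (edgeR adjusted p = 0.0102). Mcm7, another core subunit, stood at 33.5, 25.8, 20.8, 19.4 and 17.9 FPKM in Mettl3-ASO libraries 1 to 5, against 41.3, 38.4, 24.3, 29.9 and 27.3 FPKM in ASO-Control libraries 1 to 5. On the log2 scale the change was −0.51 ± 0.12 (edgeR adjusted p = 0.00287). Within Mcm7, 34.2% of the 50-base windows of its transcripts also occur in transcripts of other genes, so its share of reads is less certain. Mcm2, which contacts histones at the fork, stood at 61.1, 26.5, 11.5, 16.4 and 11.5 FPKM in Mettl3-ASO libraries 1 to 5, against 54.5, 30.8, 14.3, 19.8 and 13.03 FPKM in ASO-Control libraries 1 to 5. The batches stood farther apart than the groups. The mean was 43.8 FPKM in untagged Mettl3-ASO and 42.7 FPKM in untagged ASO-Control libraries, and in batch 2 it was 13.1 FPKM in Mettl3-ASO and 15.7 FPKM in ASO-Control libraries. Its log2 fold change of −0.20 ± 0.21 (edgeR adjusted p = 0.463) did not pass. Mcm3 averaged 22.6 ± 4.33 FPKM in Mettl3-ASO and 19.6 ± 3.63 FPKM in ASO-Control libraries and Mcm5 24.8 ± 9.63 FPKM in Mettl3-ASO and 20.1 ± 5.71 FPKM in ASO-Control libraries, with adjusted p of 0.388 and 0.203. Mcm6, with 3 E2F-type matches in the promoter printed above, averaged 40.3 ± 3.30 FPKM in Mettl3-ASO and 39.8 ± 7.27 FPKM in ASO-Control libraries (SD, n = 5 each), and its log2 fold change of −0.02 had an interval from −0.28 to 0.24. Summed over the 6 genes, FPKM ranged over 130.6 to 248.1 for Mettl3-ASO libraries and over 133.5 to 240.6 for ASO-Control libraries, with replicate 1 the highest in both groups.

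**Figure D3:**
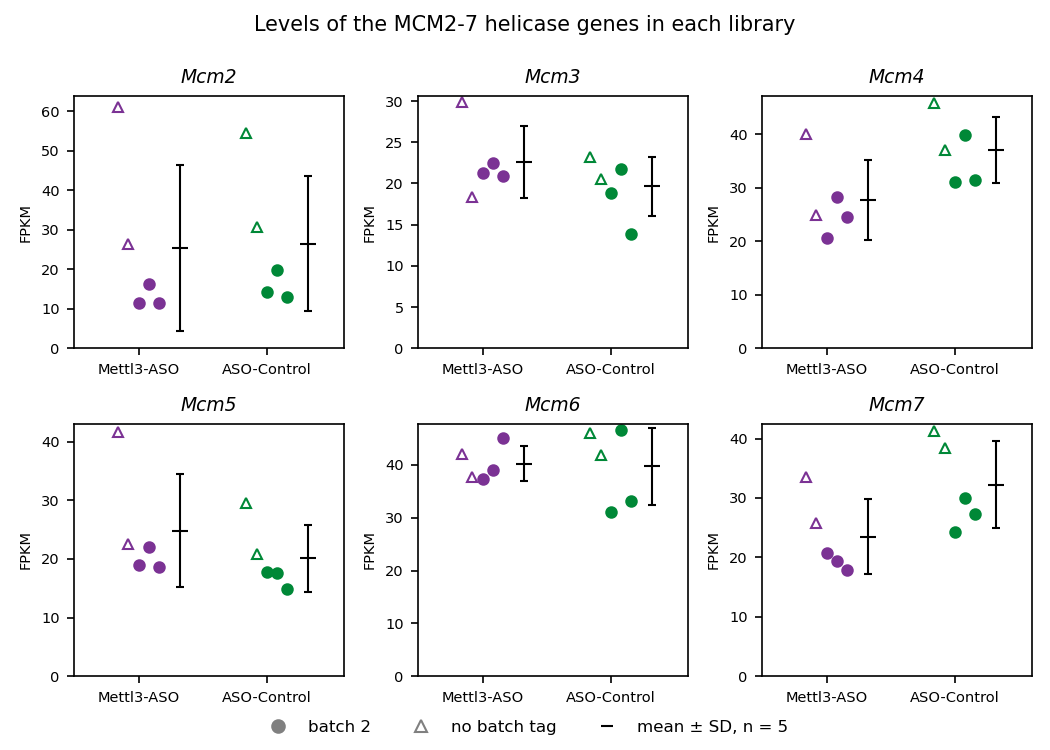
FPKM of Mcm2 to Mcm7 in each library, Mettl3-ASO on the left of each panel and ASO-Control on the right, with triangles for libraries without a batch tag, circles for batch 2 and bars for the mean ± SD of 5 libraries. Replicate 1 of both groups stands highest for Mcm2 (61.1 FPKM in Mettl3-ASO and 54.5 FPKM in ASO-Control), and Mcm4 and Mcm7 are the genes that fell.

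Of the CMG partners, Cdc45, Gins1 and Gins4 fell. Cdc45, which holds the GINS complex against the MCM ring, stood at 33.03, 33.1, 29.7, 30.5 and 32.03 FPKM in Mettl3-ASO libraries 1 to 5, against 40.99, 46.4, 43.3, 48.1 and 47.6 FPKM in ASO-Control libraries 1 to 5. These were narrow ranges with no overlap, and the log2 fold change was −0.58 ± 0.12 (edgeR adjusted p = 0.00178). Gins4 (also called Sld5) stood at 154, 152, 159, 139 and 119 FPKM in Mettl3-ASO libraries 1 to 5, against 176, 179, 205, 177 and 180.4 FPKM in ASO-Control libraries 1 to 5, likewise with no overlap. Mettl3-ASO over ASO-Control, the log2 fold change was −0.39 ± 0.11 (edgeR adjusted p = 0.0124). Gins1 (Psf1) averaged 82.99 ± 16.4 FPKM in Mettl3-ASO and 109 ± 22.3 FPKM in ASO-Control libraries, with a log2 fold change of −0.46 ± 0.13 (edgeR adjusted p = 0.0115). That call was lost without the batch term (adjusted p = 0.0999) and in batch 2 alone (adjusted p = 0.0545). Gins2 (Psf2) averaged 22.8 ± 5.56 FPKM in Mettl3-ASO and 29.5 ± 6.26 FPKM in ASO-Control libraries, and its log2 fold change of −0.42 ± 0.18 (edgeR adjusted p = 0.0761) did not pass, although with the replicate number as a block it did (adjusted p = 0.0315). For Gins2, 67.3% of exon bases lie opposite exons of Gse1. Gins3 (Psf3) averaged 12.4 ± 2.80 FPKM in Mettl3-ASO and 9.20 ± 2.07 FPKM in ASO-Control libraries and Mcm10, which helps to activate CMG, 25.7 ± 4.77 FPKM in Mettl3-ASO and 22.8 ± 2.61 FPKM in ASO-Control libraries. Neither passed, with adjusted p of 0.124 for Gins3 and 0.45 for Mcm10.

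DNA polymerase alpha-primase starts each new strand with a short RNA-DNA primer, and 3 of its 4 subunit genes fell. Prim2 (chromosome 1, 33453808 to 33669808), the large primase subunit, stood at 10.2, 6.60, 10.6, 10.7 and 8.57 FPKM in Mettl3-ASO libraries 1 to 5, against 18.9, 18.4, 19.8, 23.4 and 19.2 FPKM in ASO-Control libraries 1 to 5. The highest Mettl3-ASO library was well below the lowest ASO-Control library. The fitted log2 fold change was −1.15 ± 0.14 (edgeR adjusted p = 4.70e-05). Prim1, the catalytic primase subunit, stood at 33.9, 38.1, 48.9, 47.9 and 46.4 FPKM in Mettl3-ASO libraries 1 to 5, against 54.4, 51.3, 74.7, 66.8 and 71.9 FPKM in ASO-Control libraries 1 to 5, also without overlap. This was a log2 fold change of −0.61 ± 0.12 (edgeR adjusted p = 0.00112). Pola1, the catalytic polymerase subunit, whose promoter is printed above, averaged 7.32 ± 1.68 FPKM in Mettl3-ASO and 12.5 ± 2.33 FPKM in ASO-Control libraries (SD, n = 5 each). On the log2 scale the change was −0.83 ± 0.18 (edgeR adjusted p = 0.00258). Pola2, the regulatory subunit, averaged 4.96 ± 1.90 FPKM in Mettl3-ASO and 4.94 ± 2.15 FPKM in ASO-Control libraries, and its log2 fold change of −0.01 had a wide interval, from −0.52 to 0.50.

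Of the 3 listed subunits of polymerase delta, which copies the lagging strand, 1 rose and 1 fell. Pold4, a further subunit counted below among the fork factors, also fell (log2 fold change −1.06 ± 0.26, edgeR adjusted p = 0.00487). Pold3 (chromosome 7, 100082110 to 100121502), an accessory subunit that binds PCNA, stood at 90.7, 125, 97.1, 93.7 and 84.3 FPKM in Mettl3-ASO libraries 1 to 5, against 44.8, 53.8, 47.9, 55.5 and 53.95 FPKM in ASO-Control libraries 1 to 5. All 5 Mettl3-ASO libraries lay above all 5 ASO-Control libraries. Mettl3-ASO over ASO-Control, the log2 fold change was 0.90 ± 0.14 (edgeR adjusted p = 0.000261). Pold2, the subunit that links the catalytic subunit to Pold3, averaged 13.5 ± 5.42 FPKM in Mettl3-ASO and 20.1 ± 5.50 FPKM in ASO-Control libraries (SD, n = 5 each). The fitted log2 fold change was −0.65 ± 0.18 (edgeR adjusted p = 0.0108). Pold1, the catalytic subunit, had the lowest ASO-Control level of the 47 genes, with 2.00 ± 1.08 FPKM in Mettl3-ASO and 1.58 ± 0.365 FPKM in ASO-Control libraries, and did not pass (adjusted p = 0.508, interval of the log2 fold change from −0.33 to 0.83).

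Polymerase epsilon copies the leading strand, and its 4 genes gave 3 rises and 1 fall. Pole2 (chromosome 12, 69201773 to 69228205), the subunit whose yeast counterpart holds the polymerase on the CMG helicase, stood at 18.8, 16.7, 16.5, 23.9 and 13.97 FPKM in Mettl3-ASO libraries 1 to 5, against 47.1, 46.7, 61.4, 51.3 and 59.4 FPKM in ASO-Control libraries 1 to 5. No library of one group came near the other group. Its log2 fold change was −1.61 ± 0.16 (edgeR adjusted p = 8.72e-06), and the fall was past the threshold in batch 2 and in the untagged libraries alone (adjusted p = 0.0281 in the untagged). Pole3 (chromosome 4, 62523798 to 62525014), a histone-fold subunit that also belongs to a chromatin remodelling complex, stood at 440.2, 411, 509.9, 437 and 551 FPKM in Mettl3-ASO libraries 1 to 5, against 280.3, 253, 309, 328 and 337 FPKM in ASO-Control libraries 1 to 5. This was a log2 fold change of 0.61 ± 0.11 (edgeR adjusted p = 0.000581). Pole4, its histone-fold partner, averaged 165 ± 18.8 FPKM in Mettl3-ASO and 128 ± 9.61 FPKM in ASO-Control libraries (SD, n = 5 each) with a log2 fold change of 0.33 ± 0.12 (edgeR adjusted p = 0.0447). Pole, the catalytic subunit, averaged 4.21 ± 0.736 FPKM in Mettl3-ASO and 3.16 ± 0.193 FPKM in ASO-Control libraries with a log2 fold change of 0.36 ± 0.14 (edgeR adjusted p = 0.0485). The calls of Pole and Pole4 were at the edge of the threshold: Pole's was lost in 17 of 21 alternatives, among them the replicate block (adjusted p = 0.0503), and Pole4's in 13 of 22. For Pole2, 8.5% of exon bases lie under those of Gm49384 on the same strand.

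Among the clamp and its loader, Rfc4 was the gene that was called. Rfc4 (chromosome 16, 23113948 to 23127730), a small subunit of replication factor C, the ATPase that opens PCNA and sets it on DNA, stood at 151, 169.9, 219.9, 198 and 233 FPKM in Mettl3-ASO libraries 1 to 5, against 296, 316, 416, 403 and 499 FPKM in ASO-Control libraries 1 to 5. Each Mettl3-ASO library lay below each ASO-Control library. On the log2 scale the change was −1.02 ± 0.12 (edgeR adjusted p = 3.05e-05). Of its exon bases, 12.7% lie opposite those of Eif4a2, which rose (log2 fold change 1.25, adjusted p = 9.1e-06). Pcna averaged 276 ± 15.3 FPKM in Mettl3-ASO and 235 ± 26.2 FPKM in ASO-Control libraries (SD, n = 5 each), with an adjusted p of 0.171, and of 0.0428 without Mettl3-ASO replicate 1. Of its 50-base windows 31.8% also occur in the pseudogene Pcna-ps2. Rfc1, the large subunit of the loader, had a log2 fold change of 0.26 with an adjusted p of 0.0755, and of 0.0268 with the replicate block. Rfc2, Rfc3 and Rfc5, the other small subunits, had log2 fold changes of −0.22, 0.12 and −0.09 and adjusted p of 0.292, 0.585 and 0.603. For Rfc2 and Rfc5, 19.8% and 23.0% of 50-base windows also occur in transcripts of other genes, so their levels are less certain. So the small subunits of the loader, which share one ring, did not have a common change: the interval of Rfc4 (−1.26 to −0.79) did not meet those of Rfc2 (−0.55 to 0.11), Rfc3 (−0.22 to 0.46) or Rfc5 (−0.36 to 0.18).

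Replication protein A, the heterotrimer that coats single-stranded DNA, gave no call. Rpa1 averaged 14.02 ± 4.81 FPKM in Mettl3-ASO and 12.2 ± 3.10 FPKM in ASO-Control libraries, Rpa2 122 ± 11.5 FPKM in Mettl3-ASO and 135 ± 13 FPKM in ASO-Control libraries and Rpa3 119 ± 12.3 FPKM in Mettl3-ASO and 102 ± 13.5 FPKM in ASO-Control libraries (SD, n = 5 each). Their adjusted p values were 0.519 for Rpa1, 0.25 for Rpa2 and 0.273 for Rpa3. Rpa2 passed without Mettl3-ASO replicate 2 (adjusted p = 0.0366).

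Both listed enzymes of Okazaki fragment maturation were called, in opposite directions. Lig1 (chromosome 7, 13277175 to 13311426), the DNA ligase that seals lagging-strand nicks, had the largest fold change of the 47 genes. It stood at 5.88, 1.21, 2.30, 2.99 and 1.43 FPKM in Mettl3-ASO libraries 1 to 5, against 21.9, 21.6, 15.6, 13.9 and 13.9 FPKM in ASO-Control libraries 1 to 5. Even the highest Mettl3-ASO library, replicate 1, was below the lowest ASO-Control library. Its log2 fold change was −2.72 ± 0.31 (edgeR adjusted p = 2.22e-05), which is a 6.61-fold lower level. The fall was of like size in both batches, with −2.72 in batch 2 and −2.71 in the untagged libraries (adjusted p = 0.0477 there). Fen1 (chromosome 19, 10199132 to 10204393), the nuclease that trims the flaps before ligation, stood at 38.5, 31.7, 24.9, 22.2 and 23.4 FPKM in Mettl3-ASO libraries 1 to 5, against 23.1, 18.98, 14.8, 17.97 and 11.5 FPKM in ASO-Control libraries 1 to 5. The groups overlapped over all libraries and were apart within each batch, and the log2 fold change was 0.66 ± 0.14 (edgeR adjusted p = 0.00184). Of its exon bases, 84.2% lie opposite exons of Tmem258 and Gm10143, so that Fen1 and those genes cannot be told apart if strand was not used. Tmem258 had a log2 fold change of −0.05 with an adjusted p of 0.768.

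Both listed genes of ribonucleotide reductase, the enzyme that makes deoxynucleotides, fell. Its alternative small subunit gene Rrm2b, counted among the other genes below, did not pass (log2 fold change 0.20, edgeR adjusted p = 0.533). Rrm1 (chromosome 7, 102441695 to 102469771), the large catalytic subunit, stood at 18.8, 18.97, 23.8, 16.1 and 12.3 FPKM in Mettl3-ASO libraries 1 to 5, against 30.97, 42.03, 42.7, 31.9 and 44.6 FPKM in ASO-Control libraries 1 to 5. Mettl3-ASO over ASO-Control, the log2 fold change was −1.15 ± 0.19 (edgeR adjusted p = 0.000337). Rrm2 (chromosome 12, 24708254 to 24714146), the small radical-bearing subunit that is limiting in S phase, stood at 234, 231, 217, 239 and 176 FPKM in Mettl3-ASO libraries 1 to 5, against 377, 428, 377, 440.0 and 363 FPKM in ASO-Control libraries 1 to 5. Neither gene's groups overlapped. Rrm2's log2 fold change was −0.90 ± 0.11 (edgeR adjusted p = 3.00e-05). Rrm2 was also among the most abundant of the 47 genes, next to Rfc4 and Gmnn in ASO-Control.

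Of the topoisomerases, Top1, which relaxes supercoils through single-strand breaks, rose. Top1 (chromosome 2, 160645897 to 160722764) stood at 119, 121, 83.8, 101 and 107 FPKM in Mettl3-ASO libraries 1 to 5, against 88.01, 87.5, 62.9, 63.5 and 70.1 FPKM in ASO-Control libraries 1 to 5. Within each batch the Mettl3-ASO libraries were the higher ones. The fitted log2 fold change was 0.48 ± 0.10 (edgeR adjusted p = 0.00242). Top2a, which decatenates sister chromatids through double-strand breaks, averaged 35.4 ± 1.72 FPKM in Mettl3-ASO and 30.99 ± 7.40 FPKM in ASO-Control libraries and did not pass (adjusted p = 0.477).

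**Figure D4:**
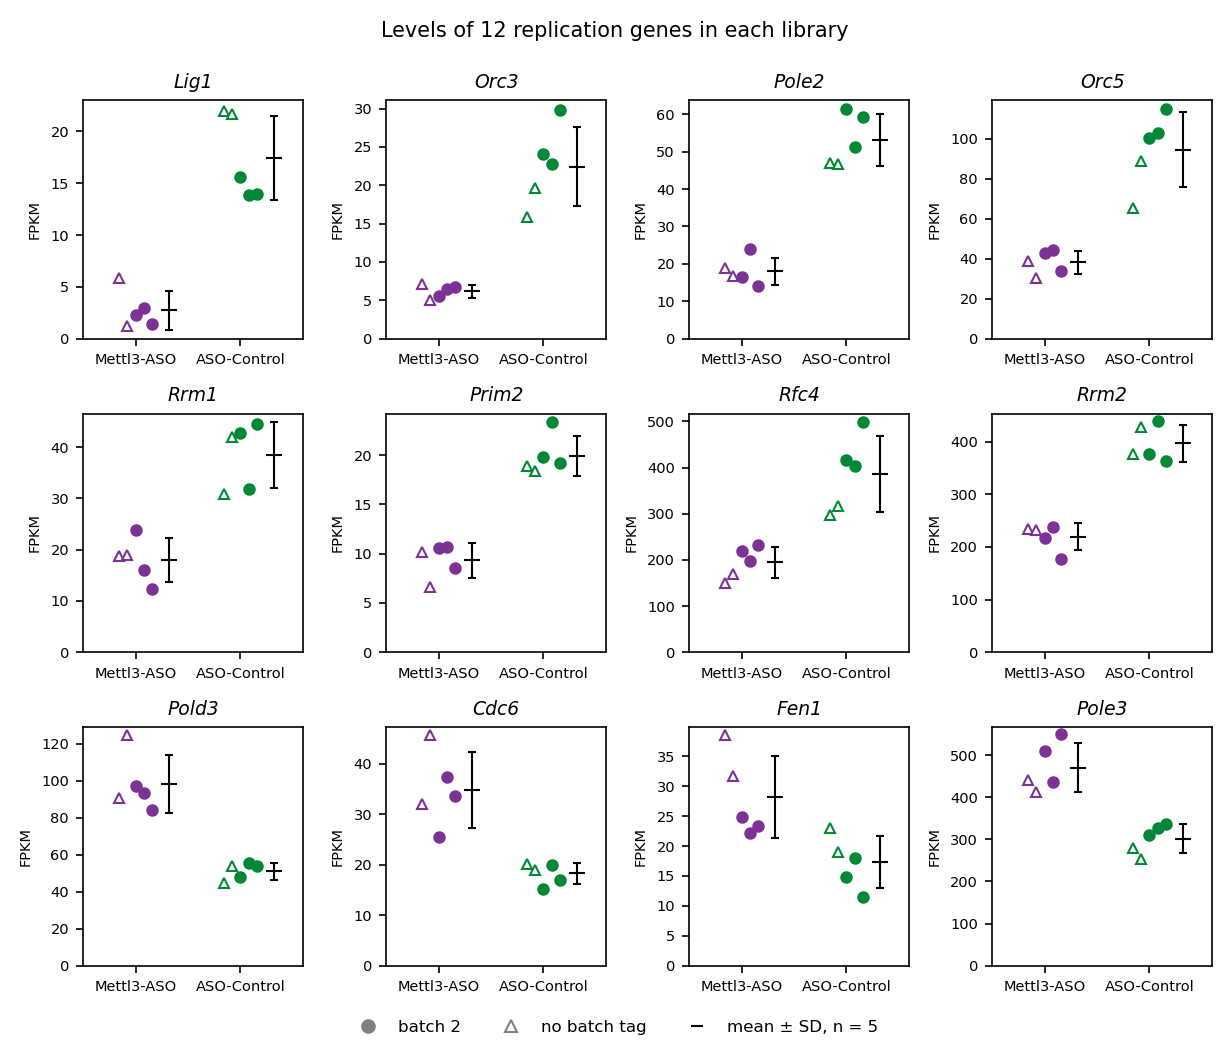
FPKM in each library for 12 of the replication genes, with Mettl3-ASO left and ASO-Control right in each panel, triangles for untagged libraries, circles for batch 2 and bars for the mean ± SD of 5 libraries. The groups do not overlap for Lig1, Orc3, Pole2, Orc5, Rrm1, Prim2, Rfc4, Rrm2, Pold3, Cdc6 and Pole3, and they overlap for Fen1.

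By role, polymerases delta and epsilon and Okazaki maturation held both rises and falls. Ribonucleotide reductase fell in both listed genes, and polymerase alpha-primase in 3 of 4. Over all libraries 25.4% of all tested genes rose and 24.0% fell, and these roles hold few genes. Within batch 2 alone 6 of the 47 genes rose and 15 fell, against a background of 20.2% of tested genes rising and 18.9% falling. These 21 genes were all among the 23 called over all libraries. In the untagged libraries alone, 2 against 2, no gene of the 47 rose and 4 fell (Orc3, Orc5, Pole2 and Lig1), against 3.79% and 2.47% of tested genes. At an unadjusted p under 0.05 the untagged libraries gave 4 of the 47 higher (8.51%) and 9 lower (19.1%), against 14.7% and 12.2% of all tested genes. Of the 47 genes 41 had one sign in both batches (87.2%), against 85.5% of all tested genes. A test of whether the change differed between batches gave an unadjusted p under 0.05 for none of the 47, against 1.67% of tested genes, and no tested gene passed after adjustment.

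Around the 47 genes, 63 other genes of replication were listed by role, and 54 passed the filter on low values. Of these 6 rose and 19 fell, where 25.4% of all tested genes rose and 24.0% fell. That is 46.3% called against the same background of 49.4%, with a median log2 fold change of −0.10. Among the 16 tested regulators of origin firing, 3 rose and 2 fell (31.2% called). Dbf4, the activating partner of the Cdc7 kinase, averaged 92.8 ± 8.09 FPKM in Mettl3-ASO and 49.9 ± 8.44 FPKM in ASO-Control libraries (SD, n = 5 each), a log2 fold change of 0.86 ± 0.11 (edgeR adjusted p = 6.87e-05). Its kinase Cdc7 went the other way, with 5.36 ± 1.85 FPKM in Mettl3-ASO and 9.22 ± 1.89 FPKM in ASO-Control libraries and a log2 fold change of −0.89 ± 0.24 (edgeR adjusted p = 0.00842). Cdc7 changed by −1.34 within batch 2, against −0.15 where no batch was tagged, and edgeR's interaction test of that difference gave an unadjusted p = 0.0058 and did not pass after adjustment. Ticrr (treslin), which brings Cdc45 to origins, rose with 8.51 ± 1.66 FPKM in Mettl3-ASO and 4.36 ± 0.338 FPKM in ASO-Control libraries and a log2 fold change of 0.92 ± 0.16 (edgeR adjusted p = 0.000485). Ccne2, a cyclin of the entry into S phase, fell with a log2 fold change of −0.80 ± 0.17 (edgeR adjusted p = 0.00205).

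Of 15 tested factors that travel with or act at the fork, 1 rose and 7 fell. That is 53.3% called, near the 49.4% of all tested genes, of which 25.4% rose and 24.0% fell. Timeless, a fork protection protein, averaged 1.51 ± 0.668 FPKM in Mettl3-ASO and 3.78 ± 1.08 FPKM in ASO-Control libraries, with a log2 fold change of −1.44 ± 0.17 (edgeR adjusted p = 3.49e-05). Rnaseh2b, a subunit of the enzyme that removes ribonucleotides from DNA, averaged 43.01 ± 10 FPKM in Mettl3-ASO and 99.4 ± 16.2 FPKM in ASO-Control libraries, with a log2 fold change of −1.26 ± 0.13 (edgeR adjusted p = 1.04e-05). Chtf8, of an alternative clamp loader, had a log2 fold change of 0.60 ± 0.23 (edgeR adjusted p = 0.0499), a call that was lost in 16 of 21 alternatives. Of 8 other genes of deoxynucleotide supply, Rrm2b among them, none rose and 4 fell. Tk1 (thymidine kinase) had a log2 fold change of −0.81 ± 0.16 (edgeR adjusted p = 0.00138), and Tyms (thymidylate synthase) a log2 fold change of −0.67 ± 0.14 (edgeR adjusted p = 0.00142). In both genes every Mettl3-ASO library was below every ASO-Control library.

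Among 8 genes of chromatin assembly at forks, 1 rose and 3 fell. The histone chaperone Asf1b fell with 67.6 ± 6.88 FPKM in Mettl3-ASO and 98.2 ± 4.55 FPKM in ASO-Control libraries and a log2 fold change of −0.58 ± 0.12 (edgeR adjusted p = 0.00161). Chaf1b, a subunit of chromatin assembly factor 1, fell with a log2 fold change of −0.54 ± 0.16 (edgeR adjusted p = 0.0123). Slbp, which binds histone messenger RNA, had a log2 fold change of 0.30 ± 0.12 (edgeR adjusted p = 0.0493), and that call was lost in 14 of 22 alternatives. Of 7 tested genes of the E2F and retinoblastoma families, 1 rose and 3 fell (57.1% called, against the same 49.4%). E2f5, a member counted among the repressive E2Fs, averaged 15.2 ± 2.97 FPKM in Mettl3-ASO and 5.03 ± 0.784 FPKM in ASO-Control libraries, with a log2 fold change of 1.57 ± 0.20 (edgeR adjusted p = 4.99e-05). The E2F dimerisation partners Tfdp1 and Tfdp2 fell. Tfdp1 averaged 34.6 ± 11.4 FPKM in Mettl3-ASO and 79.8 ± 10.7 FPKM in ASO-Control libraries, with a log2 fold change of −1.30 ± 0.13 (edgeR adjusted p = 1.06e-05). Tfdp2 averaged 1.09 ± 0.41 FPKM in Mettl3-ASO and 3.91 ± 0.336 FPKM in ASO-Control libraries, with a log2 fold change of −1.90 ± 0.22 (edgeR adjusted p = 2.42e-05). For Tfdp1, 27.1% of 50-base windows also occur in Gm7390.

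**Figure D5:**
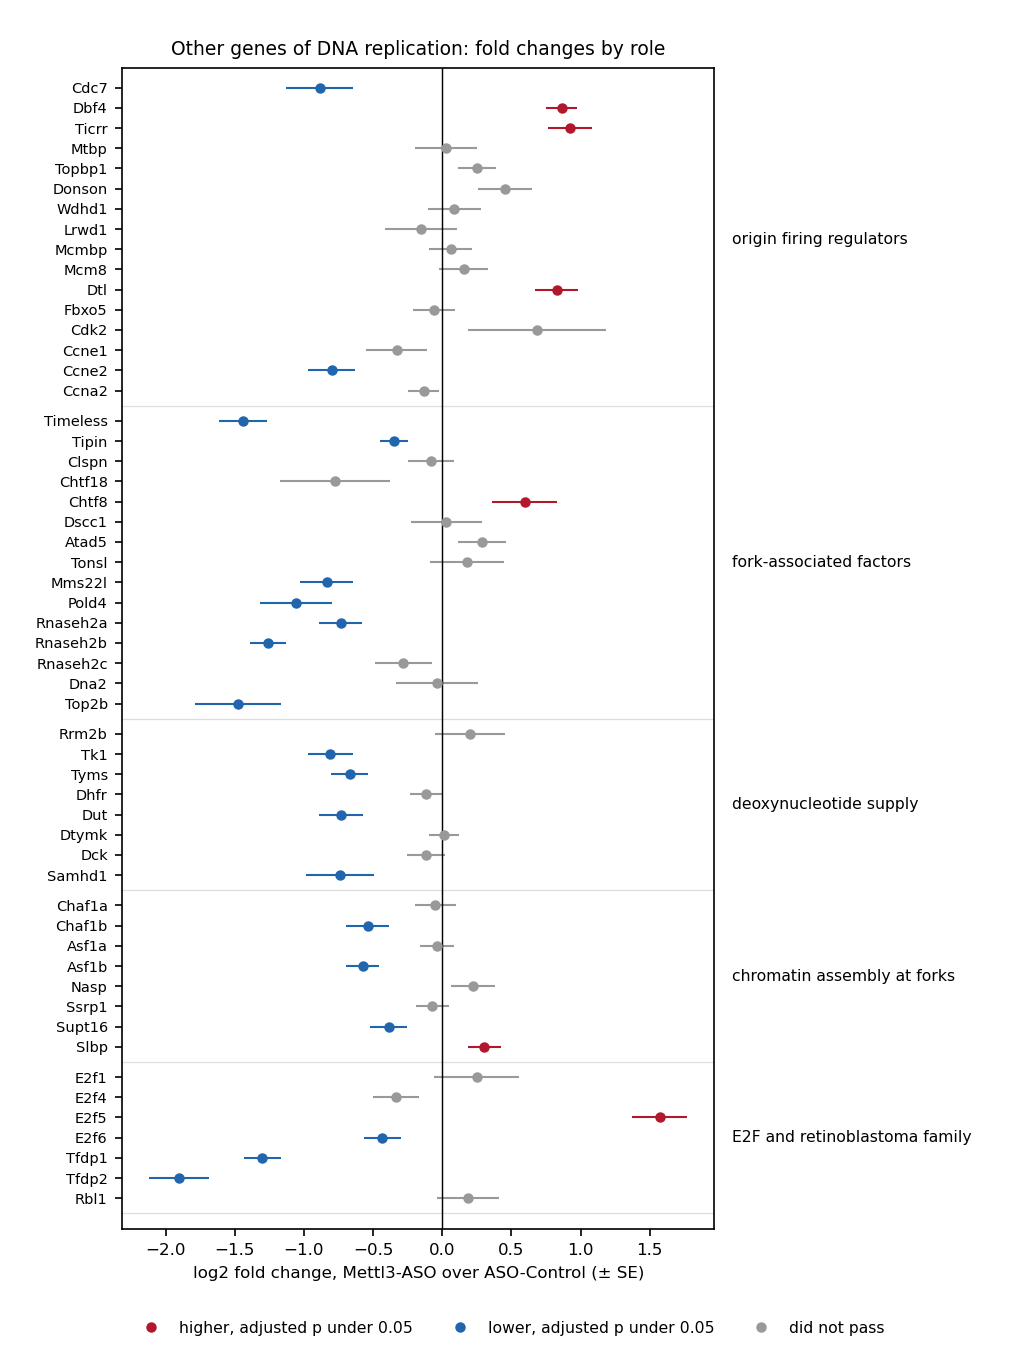
Log2 fold change (Mettl3-ASO over ASO-Control, ± SE) of the 54 tested genes of replication outside the 47, grouped by role, with rises in red, falls in blue and genes that did not pass in grey. E2f5 lies farthest right at 1.57 and Tfdp2 farthest left at −1.90.

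METTL3 methylates adenosine in short sequence contexts of which GGACT is a frequent one, so these letters were counted in the longest coding transcript of each gene in GENCODE M21, on the sense strand. The median was 0.652 matches per kilobase in the 7 genes that rose, 0.927 in the 16 that fell and 1.23 in the 24 that did not pass. Over all tested genes the medians were 1.06 for rises, 0.98 for falls and 1.02 for genes that did not pass. Pole2, Rfc4 and Prim2, all of which fell, held no match, as did Rpa3, which did not pass. Cdc6, which rose, held 2.38 per kilobase. These are counts of letters, and no methylation was measured.

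Markers of stage and of other cells were read beside these changes. Genes of the 2-cell stage, when the embryo genome is first widely transcribed, rose in 8 of 9 cases. The summed FPKM of the 9 spanned 948.1 to 3815 among Mettl3-ASO libraries, against 205.8 to 256.2 among ASO-Control libraries. Most of the ASO-Control sum was Eif1a, the gene that did not pass, at 202.71 to 243.77 FPKM there. Zscan4c and Zscan4d rose but stood at only 0.31 to 0.51 FPKM in Mettl3-ASO replicates 3 and 5. Of 10 genes of the morula and blastocyst lineages 9 were tested, of which 2 rose and 5 fell, and 0 of the 10 were at 0 in every library. The falls were in Krt18, Gata3, Krt8, Cdx2 and Pou5f1, with log2 fold changes of −2.709, −2.192, −2.125, −1.153 and −0.6388. Nanog and Dppa3 rose, with 1.07 and 0.6239. The summed FPKM of the 10, mostly Dppa3, spanned 23720 to 44560 among Mettl3-ASO libraries, against 17100 to 26300 among ASO-Control libraries. That sum therefore does not show the falls. Markers of cumulus and granulosa cells summed over 8 genes to 2.77 to 6.27 FPKM among Mettl3-ASO libraries, against 1.63 to 3.84 FPKM among ASO-Control libraries, with Cyp19a1, Has2 and Inhba listed at 0 in every library. Sperm markers summed over 4 genes to 0.25 to 3.04 FPKM among Mettl3-ASO libraries, against 0.51 to 2.13 FPKM among ASO-Control libraries. Amhr2, the one tested marker of cumulus and granulosa cells, rose (log2 fold change 0.80). The part of embryo stage or of other cells in the changes of the replication genes was not tested.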

How the data were processed

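RNA sequencing libraries from 5 Mettl3-ASO and 5 ASO-Control pools of morulae were analysed from one gene table per library. Per the submitters' processing notes, STAR 2.7.10, RSEM 1.3.3 and mm10 were used, with no role, order or options given, and the annotation release was not named. Per the labels' protocols, polyadenylated RNA was amplified with the SMART-Seq v4 PLUS kit. The authors deposited expected counts, which share out reads that match several genes by estimation and need not be whole. TPM, scaled to one total in every library, and FPKM, scaled to transcript length and to the fragments of the library, were deposited beside them. Near-identical gene copies and overlapping genes are therefore uncertain, and their share of each gene was computed from GENCODE M21.

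After rounding to whole numbers the expected counts were tested with edgeR 4.0.16 in R 4.3.3 (TMM scaling, quasi-likelihood F test, batch and group as terms, all 10 libraries), over the 9522 of 24411 genes with a mean of at least 1 FPKM, with Benjamini-Hochberg adjustment over all of them and a threshold of 0.05. The fit was tested on simulated data with far fewer changed genes than were called here, so its recovery does not carry over directly. Small changes were mostly not recovered there. Batch 2 alone recovered few changes, and 2 libraries a group fewer still. Standard errors are the log2 change over the root of F, and the nominal 95% intervals are 1.96 of them. That is a normal quantile, so the intervals are narrower than edgeR's F test allows. Orc1, with an unadjusted p of 0.0552 in that test, has an interval from 0.03 to 0.72. The test was repeated inside each batch and with a group-by-batch interaction. DESeq2 1.42.0, limma 3.58.1 on log2(FPKM + 1), other scalings, filters, pseudocounts, the replicate block and leaving out each library were alternatives. No pair of libraries of a group and batch came within sampling noise (chi-square per degree of freedom of at least 19.6 in 8 pairs). Same-numbered libraries deviated together after removing group and batch means, with correlations of 0.273, 0.273, 0.174, 0.147 and 0.105 for replicates 1 to 5. The first 2 of these mirror each other by construction. In batch 2, too, removing means forces differently numbered values negative on balance where the same-numbered value is positive. Differently numbered libraries reached 0.024 within a batch, and 0.143 across batches (Mettl3-ASO replicate 2 with ASO-Control replicate 5). On this weak evidence the numbers were taken to pair the libraries in the replicate block, an alternative to the main fit. Fragments carry no molecular identifiers, so counts overstate precision and depth limits low genes such as Lig1 and Pold1.

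The 47 genes and all other lists were chosen with earlier results of these data known. All 47 were accounted for. From the other replication genes the text names, per role, the 2 called genes with the smallest p in each direction. Rrm2b and Pold4 are named besides, as further subunit genes of listed enzymes. Genes that overlap a gene of interest are named for that reason.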

Additional observations from a re-analysis of the deposited data

Results flagged for a closer look

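The levels of the 47 replication genes, 15 other named genes (without Rrm2b and Pold4) and Mettl3 were searched in each group of 5 libraries. The search was for a library that stood apart by Dixon's criterion. It asks whether the gap to the nearest library, divided by the range, exceeds 0.71. Of 126 gene and group pairs, 7 had such a library, and chance alone gives about 1 in 20. Mettl3-ASO replicate 1, an untagged library, stood above the others of its group for 3 genes. Mcm5 was at 41.76 FPKM there, against 18.66 to 22.52 FPKM in the other Mettl3-ASO libraries. Pola2 was at 8.21 FPKM, against 3.28 to 4.64 FPKM. Rpa1 was at 22.46 FPKM, against 10.36 to 12.88 FPKM. Mettl3-ASO replicate 2, also untagged, stood apart for 2 genes. Rfc3 was higher there at 149.55 FPKM, against 97.02 to 109.36 FPKM in the other Mettl3-ASO libraries, and Rpa3 was lower at 97.09 FPKM, against 120.56 to 127.16 FPKM. None of these 5 genes was called. Among ASO-Control libraries, replicate 3 stood above the others for Gins4, at 205.27 FPKM against 176.17 to 180.4 FPKM, and replicate 4 for Prim2, at 23.37 FPKM against 18.37 to 19.78 FPKM. Both Gins4 and Prim2 fell in Mettl3-ASO, and leaving out those libraries kept both calls.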

How the results depend on the processing

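Over 22 alternatives, 1031 fold changes of the 47 genes were recomputed, of which 945 kept their direction and their side of the threshold, 49 lost a call, 13 gained one and 24 had the other sign without a call in either fit. Of the 49 lost calls, 19 came in the untagged libraries alone, a fit with 2 libraries a group. There 361 genes rose and 235 fell in the whole table, 0 of the 47 rose and 4 fell, and of the other replication genes 0 rose and 1 fell (at an unadjusted p under 0.05, 4 and 9 of the 47, and 4 and 6 of the 54 others, against 1398 and 1165 of all 9522 tested). Leaving out 1 library at a time gave 2162 to 2461 rises and 2022 to 2339 falls over all genes, 5 to 8 and 16 to 17 among the 47, and 4 to 6 and 17 to 19 among the others. The replicate block gave 2630 rises and 2616 falls over all genes, with 7 and 17 among the 47 and 6 and 20 among the others. Beyond Gins2, Pole and Rfc1 the block changed no call of the 47 genes. Without a filter on low values 3145 of 19442 genes rose and 2718 fell. Signs turned for genes near no change. Mcm6 was 0.0404 with upper-quartile scaling, 0.0327, 0.0338 and 0.0284 with limma at pseudocounts of 1, 0.1 and 5, 0.0419 at a minimum of 5 FPKM and 0.106 in batch 2, and −0.0933 to 0.0601 with 1 library left out. Pola2 was 0.055, 0.0406, 0.0637 and 0.0121 under the same scaling and pseudocounts, 0.137 in batch 2 and 0.0266 with the replicate block, and −0.179 to 0.145 with 1 library left out. Rfc3 was −0.0548 in batch 2 and −0.0764 to 0.206 with 1 library left out. In the untagged libraries Cdt1 was −0.00343, Rfc5 0.224 and Top2a −0.0757. The cause of these turns was not tested. The Mettl3 difference stayed between −9.414 and −7.888 FPKM with 1 library left out. In same-numbered pairs, a replicate block added after seeing the data, it was −8.844 FPKM with an exact p of 0.0625, the smallest that 5 pairs allow.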
